A study of Mus musculus with 5 samples.

Results

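The flank described here is the stretch of mouse chromosome 13 that begins past the higher-coordinate end of the gene Mast4 and runs to 111 Mb, chr13:103335100-111000000 in mm10 coordinates. It lies on the higher-coordinate side of a 4C-seq bait in the promoter region of Pik3r1 at position 101766365, between 1.57 and 9.23 Mb from it. Its members are the restriction fragments whose midpoint falls in this interval, 18594 of the 292200 fragments counted on the chromosome. They make up 6.53% of the fragments beyond 1.5 Mb of the bait, called far fragments below. The interval is defined by position alone, with no read count in its rule, but it was chosen with earlier results of these data known. Its annotation holds 97 whole gene spans, of which 32 are protein-coding, among them Srek1, Erbin, Adamts6, Kif2a, Zswim6 and Pde4d.

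The 5 libraries came from C57/Bl6 mice and followed the same protocol with the restriction enzymes DpnII and Csp6I. The DP library is from wild-type thymocytes positive for CD4 and CD8 (double-positive), sorted by antibody from thymus of 4 weeks of age. The other libraries are from nuclei of skeletal muscle at 10 to 12 weeks of age, 2 from wild-type (WT) and 2 from GRko mice. GRko is labelled a knockout and is read here, from what is known of the study, as loss of the glucocorticoid receptor. The labels do not give the construct or the cells in which the gene is deleted, nor whether mice were pooled. Whole-muscle nuclei come from muscle fibres and from other cells of the tissue. Contact counts on chromosome 13 check neither the genotype nor the cell type. Separate animals are not named for the replicates either, and p-values cover only how much these libraries varied.

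In 4C-seq, crosslinked chromatin is cut and religated, and the DNA joined to a chosen bait fragment is amplified and sequenced. Contacts of a bait fall off with distance, and at megabase range they tend to favour chromatin of the bait's own kind. Stretches rich in active genes then appear as raised coverage, and gene-poor stretches as troughs. Pik3r1 encodes a regulatory subunit of phosphoinositide 3-kinase and is transcribed in many tissues.

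A fragment can be counted only if DpnII cuts at its ends, so gene starts are sampled at GATC sites. Of the promoters in the RefSeq table for GRCm38.p6, 41.9% of 32851 have GATC in the 250 bases before the start, and 31.5% have GTAC, the Csp6I site. In the flank, GATC was found in 38 of 83 promoters (45.8%). Both motifs read the same on either strand and cannot overlap each other. The 250 bases before 4 starts are printed 5′ to 3′ on the gene's strand, with GATC and GTAC in capitals, to show where the enzymes can cut in 3 promoters with reads and in that of Kif2a. A match is a description of the sequence only. The promoters of Nln (chr13:104109615-104109864, minus strand), Cenpk (chr13:104228361-104228610, plus strand) and Ercc8 (chr13:108158488-108158737, plus strand) were chosen because a fragment with 10 or more reads in some library had its midpoint in the promoter window. The Kif2a promoter (chr13:107022356-107022605, minus strand) lies in the window with the highest thymocyte-to-muscle ratio in the flank.
Nln: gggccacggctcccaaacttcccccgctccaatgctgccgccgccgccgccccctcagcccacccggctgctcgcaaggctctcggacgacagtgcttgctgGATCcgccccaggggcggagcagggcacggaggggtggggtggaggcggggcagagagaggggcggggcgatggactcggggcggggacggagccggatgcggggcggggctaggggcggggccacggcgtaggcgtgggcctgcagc
Cenpk: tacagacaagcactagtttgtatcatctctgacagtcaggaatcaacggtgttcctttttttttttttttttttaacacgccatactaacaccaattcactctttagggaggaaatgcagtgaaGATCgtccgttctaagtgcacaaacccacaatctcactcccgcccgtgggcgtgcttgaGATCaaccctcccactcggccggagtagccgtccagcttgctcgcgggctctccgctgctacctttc
Ercc8: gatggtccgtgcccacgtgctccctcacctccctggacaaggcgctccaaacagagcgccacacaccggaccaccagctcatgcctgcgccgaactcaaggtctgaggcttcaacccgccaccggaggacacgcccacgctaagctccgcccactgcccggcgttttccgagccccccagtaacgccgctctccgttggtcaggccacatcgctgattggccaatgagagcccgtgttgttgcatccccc
Kif2a: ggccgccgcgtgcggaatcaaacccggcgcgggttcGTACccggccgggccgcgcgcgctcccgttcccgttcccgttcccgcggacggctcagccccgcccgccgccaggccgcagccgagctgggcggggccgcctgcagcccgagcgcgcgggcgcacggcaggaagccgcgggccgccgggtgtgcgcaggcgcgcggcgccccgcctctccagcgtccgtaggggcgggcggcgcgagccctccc

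Nln encodes a metallopeptidase, and its promoter holds 1 GATC. The fragment with its midpoint at 104109815 had 68 reads in DP thymocytes and 0 in each muscle library. The Cenpk promoter, of a kinetochore protein, holds 2 GATC sites, which bound a short fragment with its midpoint at 104228514. That fragment had 54 reads in GRko replicate 2 and 0 in the other libraries. Ercc8, a gene of transcription-coupled DNA repair, and Ndufaf2, an assembly factor of respiratory complex I, start close to each other on opposite strands. The Ercc8 sequence holds neither GATC nor GTAC. The fragment between these genes, with its midpoint at 108158577, had 78 reads in DP thymocytes and 43 in WT replicate 1, and 0 in the other 3 libraries. The Kif2a promoter printed here holds no GATC and 1 GTAC. That of another Kif2a start, at chr13:107022115-107022364, holds neither.

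Reads on chromosome 13 ranged from 1317351 in GRko replicate 2 to 8993436 in DP thymocytes. The flank took 4.05 to 6.11% of them. Reads of DP thymocytes and of replicate 1 of each muscle group were 29 nt long, and those of replicate 2 of each group 23 nt. A fragment is called covered when it had 1 or more reads, since many reads of a fragment can be PCR copies of 1 ligation. Fragments with a single read made up 8.65% of the covered fragments of the flank in DP thymocytes, 8.81% in WT replicate 1 and 12.4% in GRko replicate 1. In the 23 nt libraries they made up 31.2% in WT replicate 2 and 33.5% in GRko replicate 2. Results are therefore also given for fragments with 10 or more reads, and differences between genotypes within each read length. Intervals for the single DP library are 95% Wilson intervals and cover counting error only.

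The flank was covered more densely than the far chromosome as a whole in every library. In DP thymocytes 1560 of its fragments were covered, which is 8.39% against 3.29% of all far fragments. WT replicates 1 and 2 had 840 and 368 covered fragments, 4.52% and 1.98% of the flank against 2.19% and 1.06% of all far fragments. GRko replicates 1 and 2 had 442 and 278, 2.38% and 1.5% against 0.980% and 0.854%. Coverage thus followed the depth of the libraries, and comparisons between them use shares of each library's covered far fragments.

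DP thymocytes held the largest flank share of the 5 libraries, but with so few libraries the exact permutation tests used for shares cannot give a p below 0.200. The flank made up 16.7% of the covered far fragments of DP thymocytes (95% interval 15.9 to 17.4%). It made up 13.5% and 12.2% in WT replicates 1 and 2, and 15.8% and 11.4% in GRko replicates 1 and 2. The DP value thus lay above all 4 muscle values, and the GRko values lay on both sides of the WT values. The WT libraries averaged 12.8% ± 0.902 and the GRko libraries 13.6% ± 3.12 (SD, n = 2 each). The difference of GRko minus WT was 0.814 percentage points, less than the spread between the GRko replicates, with p = 1.00 in an exact two-sided permutation test. It was 2.38 points between the 29 nt libraries and -0.756 between the 23 nt libraries. DP minus WT was 3.85 points, with p = 0.333 in the exact test, the smallest that 1 against 2 or 2 against 2 libraries allow. Against all 4 muscle libraries the difference was 3.44 points, with p = 0.200 in the exact test, the smallest that 1 against 4 allow. Adjusted over the 10 comparisons of shares and distances in this and the next paragraphs, no exact permutation p was below 0.953.

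With 10 or more reads per fragment, DP thymocytes held 17.4% (16.5 to 18.3%). WT replicates 1 and 2 held 14.1% and 16.4%, and both GRko replicates 16.0%. DP thymocytes were still above the 4 muscle libraries, but not at equal numbers of fragments, where they held 17.1% and WT replicate 2 17.2%. DP thymocytes differed by 2.10 points from WT (exact permutation p = 0.667) and by 1.73 from all muscle (exact permutation p = 0.400). The difference from WT was 0.413 points at equal numbers, 0.925 without WT replicate 1 and 3.28 without WT replicate 2. GRko minus WT was 0.739 points (exact permutation p = 1.00), 1.87 within the 29 nt and -0.397 within the 23 nt libraries. The shares of the 23 nt libraries moved most with the read minimum, from 12.2% to 16.4% in WT replicate 2 and from 11.4% to 16.0% in GRko replicate 2.

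**Figure D1:**
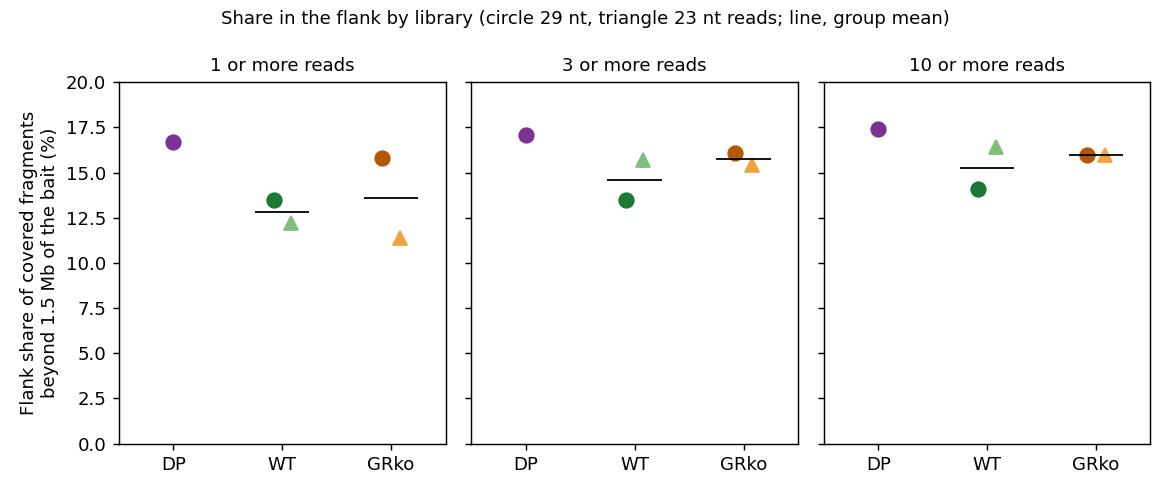
Flank share of the covered fragments beyond 1.5 Mb of the bait (percent, vertical axis) in each library, with circles for 29 nt and triangles for 23 nt reads and lines for the means of the muscle groups, at minimums of 1, 3 and 10 reads per fragment. DP thymocytes are highest at each minimum, at 16.7%, 17.1% and 17.4%, and the 23 nt libraries lie at 12.2% and 11.4% with 1 or more reads and at 16.4% and 16.0% with 10 or more.

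The flank was next set against the interval of equal length and distance on the other side of the bait, chr13:92532730-100197630. The flank holds 50.5% of the fragments of both intervals together. In DP thymocytes it also held 50.5% of their covered fragments (48.7 to 52.2%). The muscle values were 42.4% and 47.4% in WT replicates 1 and 2, and 47.2% and 48.9% in GRko replicates 1 and 2. The 4 muscle libraries thus lay below the share of fragments, and DP thymocytes at it. DP minus WT was 5.55 points and GRko minus WT 3.11 points (exact permutation p = 0.667 for each). Without WT replicate 1 these were 3.03 and 0.592, and without WT replicate 2 8.07 and 5.63 points.

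Covered fragments lay in genes more often than the fragments of the flank at large. Annotated gene spans hold 50.9% of all flank fragments. They held 70.1% of the covered ones in DP thymocytes (67.8 to 72.3%), 64.4% and 63.0% in WT replicates 1 and 2, and 64.5% and 57.2% in GRko replicates 1 and 2. DP thymocytes were highest, above WT muscle by 6.40 points (exact permutation p = 0.333). GRko minus WT was -2.89 points (exact permutation p = 1.00), 0.0749 between the 29 nt and -5.85 between the 23 nt libraries. The median distance of covered fragments from the bait was 5.17 Mb in DP thymocytes, against 5.29 Mb for all fragments. It was 3.67 and 4.43 Mb in WT and 3.30 and 4.37 Mb in GRko replicates 1 and 2. DP minus WT was 1.12 Mb and GRko minus WT -0.211 Mb (exact permutation p = 0.667 for each). The order of the libraries turned on the first 500 kb, without which the median was 5.32 Mb in DP thymocytes, 5.56 and 5.36 Mb in WT, and 5.08 and 5.22 Mb in GRko replicates 1 and 2, a DP minus WT of -0.137 Mb. At equal numbers of fragments DP minus WT was 0.484 Mb, and DP thymocytes at 4.19 Mb lay below GRko replicate 2 at 4.37 Mb.

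With 1 or more reads, coverage was also higher near gene starts than in the flank at large. The fragments within 5 kb of the 34 starts of 30 protein-coding genes make up 3.09% of the flank. They made up 8.08% of the covered fragments in DP thymocytes, 4.05% and 5.98% in WT, and 6.11% and 6.47% in GRko replicates 1 and 2. With 10 or more reads the shares were 9.0% in DP thymocytes, 2.95% and 3.95% in WT, and 4.59% and 9.56% in GRko replicates 1 and 2. These rest on 100 fragments in DP thymocytes, 18 and 7 in WT, and 13 in each GRko replicate. All libraries were thus above 3.09% with 1 or more reads, and with 10 or more WT replicate 1 fell below it. Up to 105.5 Mb, where coverage was densest, the flank has 18 protein-coding genes. Neither these shares nor those of gene spans were matched for distance from the bait, so position and distance cannot be told apart here.

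Coverage was highest near the start of the flank and low in its gene desert in all libraries. The 500 kb just outside its start, within Mast4, were covered at 25.0% of fragments in DP thymocytes, 27.7% and 10.7% in WT, and 14.6% and 5.75% in GRko replicates 1 and 2. The 500 kb just inside were covered at 10.5%, 12.2%, 4.11%, 6.20% and 3.33%, in the same order. The 500 kb inside the start were thus covered less than those outside in each library. The first window, up to 103500000 and without a protein-coding span, was covered at 7.22% in DP thymocytes and 8.35% in WT replicate 1. It was at 2.93% in WT replicate 2, and 5.87% and 2.93% in GRko replicates 1 and 2. In each library the next window was covered more, so coverage did not fall steadily from the start. At the other end the libraries differed: the last 500 kb inside were covered at 2.30%, 3.77%, 1.89%, 2.05% and 1.56%, and the 500 kb just outside at 6.85%, 3.23%, 1.10%, 1.10% and 1.02%. Only DP thymocytes were higher outside that end than inside it.

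The following stretches were drawn after the profile had been seen and carry no test. From the start to 105.5 Mb, a stretch with 18 protein-coding genes from Srek1 to Htr1a held 44.6% of the covered flank fragments in DP thymocytes, 50.2% and 45.9% in WT, and 55.2% and 45.7% in GRko replicates 1 and 2. From 105.5 to 106.5 Mb lies a stretch with no protein-coding span, a gene desert, of 2616 fragments. It held 1.60% of the covered flank fragments in DP thymocytes, 4.29% and 5.71% in WT, and 2.71% and 6.47% in GRko replicates 1 and 2. DP thymocytes had the lowest share of the desert. From 106.5 to 108.5 Mb, a stretch with 10 protein-coding genes from Ipo11 over Kif2a and Zswim6 to Depdc1b held 30.4% in DP thymocytes (28.2 to 32.8%). Its share was 16.9% and 16.8% in WT, and 17.9% and 21.9% in GRko replicates 1 and 2. The DP share there lay above all 4 muscle shares, which spanned 16.8 to 21.9%.

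**Figure D2:**
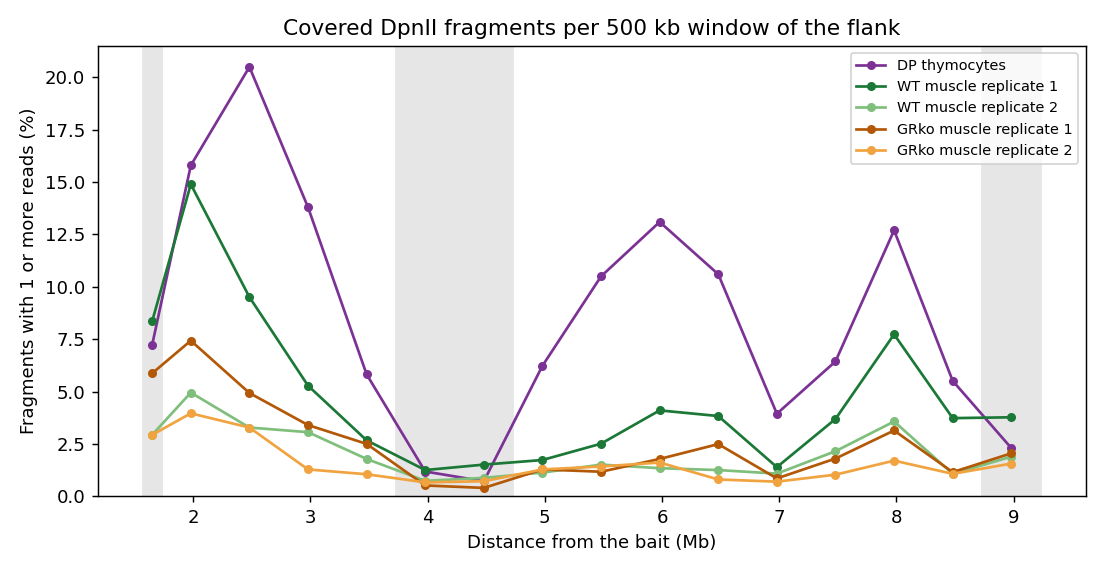
Percent of the fragments of each 500 kb window with 1 or more reads (vertical axis) against the distance of the window's centre from the bait in Mb, with a line for each library and grey bands for windows without a protein-coding span. The lines peak near the start, at 20.5% in DP thymocytes, and fall in the desert, to 0.717% in DP thymocytes. They rise again, to 13.1% in DP thymocytes over Zswim6 and 12.7% over the distal part of Pde4d.

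The highest mean coverage over the 5 libraries was in chr13:103500001-104000000, which holds Srek1 and Erbin, and in chr13:104000001-104500000, from Nln to Adamts6. The former was covered at 15.8% of its 1212 fragments in DP thymocytes, 14.9% and 4.95% in WT, and 7.43% and 3.96% in GRko replicates 1 and 2. The latter was covered at 20.5% in DP thymocytes, 9.51% and 3.28% in WT, and 4.93% and 3.28% in GRko replicates 1 and 2. Of the covered far fragments, the former held 2.05% in DP thymocytes and 2.88% in WT replicate 1, and the latter 2.53% and 1.76%. The lowest were the desert windows chr13:105500001-106000000 and chr13:106000001-106500000, covered at 1.18% and 0.717% in DP thymocytes. In the 4 muscle libraries these desert windows were covered at 0.398 to 1.51%. Correlations of the profiles over the 15 full windows are a description, since windows share libraries and the fall with distance. Pearson's r was 0.84 to 0.96 between muscle libraries and 0.73 to 0.77 between DP thymocytes and each muscle library.

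The comparison of DP thymocytes with WT muscle asks where contacts of the Pik3r1 promoter region differ between a lymphoid cell and muscle. The DP library also differs from WT muscle in age, preparation and depth, which cannot be told apart from cell type here. DP thymocytes were higher over the stretch from Ipo11 to Zswim6 and lower at the far end of the flank. Covered fragments per 500 kb window were tested with edgeR's quasi-likelihood test and Benjamini-Hochberg adjustment over the 186 windows tested beyond 1.5 Mb. A window is called when its adjusted p is under 0.05. The 5 libraries were fitted together, and the lone DP library, which has no replicate check, was taken to vary as much as those of muscle. Of the 16 flank windows, 4 were called, 3 higher and 1 lower in DP thymocytes, and 6 had an unadjusted p under 0.05. Over all windows tested 11.8% were called, 3.76% higher and 8.06% lower, and 28.5% had an unadjusted p under 0.05. The median log2 ratio of all windows was -0.12, and TMM scaling moved it to 0.00. With TMM 3 flank windows were called, all higher, and over all windows 9 were higher and 11 lower in place of 7 and 15.

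Window chr13:106500001-107000000 holds Ipo11, which encodes a nuclear import receptor, Dimt1, an RNA methyltransferase of ribosome assembly, and most of Kif2a. It held 0.886% of the covered far fragments in DP thymocytes, 0.368% and 0.496% in WT, and 0.609% and 0.698% in GRko replicates 1 and 2. The log2 ratio of DP over WT was 1.09 (SE 0.366, adjusted p = 0.0402 by edgeR's quasi-likelihood test). The next window, chr13:107000001-107500000, has 3.85% of its fragments in a protein-coding span, the start of Kif2a, a kinesin that takes microtubules apart. It held 1.35% in DP thymocytes, 0.480% and 0.596% in WT, and 0.502% and 0.698% in GRko replicates 1 and 2. With a log2 ratio of 1.35 (SE 0.398, edgeR adjusted p = 0.0208) it was the highest of the flank. Window chr13:107500001-108000000 holds Zswim6, a zinc-finger gene. It held 1.57% in DP thymocytes, 0.737% and 0.496% in WT, and 0.717% and 0.740% in GRko replicates 1 and 2, with a log2 ratio of 1.29 (SE 0.430, edgeR adjusted p = 0.0402). In these 3 windows DP thymocytes lay above each of the 4 muscle libraries with 1 or more reads. The Ipo11 window held 0.859% in DP thymocytes and 1.06% in GRko replicate 2 with 10 or more. Its call was lost against all 4 muscle libraries (log2 ratio 0.77, edgeR adjusted p = 0.0706), and with no filter on low counts it was lost together with that of Zswim6 (edgeR adjusted p = 0.0544 for both).

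The window called lower, chr13:110500001-111000000, has no protein-coding span. It held 0.299% in DP thymocytes (0.207 to 0.432%), 0.737% and 0.761% in WT, and 0.896% and 0.781% in GRko replicates 1 and 2. The muscle values thus lay close together, all above the DP value, and the log2 ratio was -1.31 (SE 0.406, edgeR adjusted p = 0.0274). Of the windows chosen for their coverage, that of the desert from 106000001 had a log2 ratio of -1.74 (SE 0.641, edgeR adjusted p = 0.0651), and the other desert window -0.77 (SE 0.531, edgeR adjusted p = 0.329). The windows of highest coverage had log2 ratios of -0.26 (SE 0.705, edgeR adjusted p = 0.835) over Srek1 and Erbin and 0.72 (SE 0.599, edgeR adjusted p = 0.456) over Nln to Adamts6. The former was called lower with 10 or more reads (log2 ratio -0.61, edgeR adjusted p = 0.0185) and against the 29 nt muscle libraries, a set chosen after seeing the data (-0.56, edgeR adjusted p = 0.0232), and was 0.05 without WT replicate 1.

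The calls depended on both WT libraries. With either WT library left out, WT had 1 library, and no flank window was called, while some windows elsewhere on the chromosome still were. For the windows from Ipo11 to Zswim6 and the last window, log2 ratios were 0.83, 1.17, 1.66 and -1.34 without WT replicate 1. Without WT replicate 2 they were 1.26, 1.48, 1.09 and -1.29. DESeq2 called 0 of 16, with 2 at an unadjusted p under 0.05. Leaving out GRko replicate 1, or GRko replicate 2, which serve only to estimate the spread here, gave 6 calls each, beside 33 of 184 and 32 of 179 over all windows. With 10 or more reads per fragment 6 of 14 were called, beside 19 of 131 over all windows, and all 4 calls were among the 6. Over 11 alternatives the log2 ratio stayed between 0.77 and 1.26 for the Ipo11 window, 1.17 and 1.51 for the Kif2a window, 1.09 and 1.66 for the Zswim6 window, and -1.40 and -1.19 for the last window.

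All 16 flank windows passed the filter on low counts. The 4 flank windows without a protein-coding span all had a log2 ratio of DP over WT below 0, with a median of -1.04. Of the 12 others, 11 were above 0, with a median of 0.65, and they include the Kif2a window with its 3.85% of fragments in such a span. Over the chromosome beyond 1.5 Mb the filter left out 16 of 37 windows without such a span and 29 of 194 others, and a window could pass it on muscle libraries alone, so counts are given with no filter. All 37 windows without such a span were then below 0, with a median of -1.67, and the 194 others split into 93 above and 101 below 0, with a median of -0.04. The DP share was above all 4 muscle shares in 8 of the 12 flank windows with a protein-coding span. This held for 54 of 165 such windows tested on the chromosome, and 29.0% of all windows tested. It was below all 4 in each of the 4 flank windows without such a span. On the chromosome this held for 18 of 21 windows without one, and 33.3% of all windows. The flank windows without a span were thus like others of their class. With 10 or more reads the first count was 6 of 12, against 43 of 165 such windows and 23.7% of all. The second was 3 of 4, against 12 of 21 and 24.7%. In the interval of equal distance on the other side, whose 14 windows all hold a protein-coding span, 6 log2 ratios were above and 8 below 0, with a median of -0.09. The difference between these classes of windows was not tested.

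Between the genotypes, where the question is what the receptor does to these contacts, no window of the flank was called. With edgeR's quasi-likelihood test 0 of 16 flank windows had an adjusted p under 0.05, and 0 had an unadjusted p under 0.05. Over all 166 windows tested, 0% were called and 4.22% had an unadjusted p under 0.05. DESeq2 also called 0. The log2 ratios of GRko over WT ranged from -0.40 to 0.64 in the flank, 11 above and 5 below 0, with a median of 0.14. Over all windows the median was 0.02, with a range of -1.15 to 0.98. This comparison shares the WT libraries with the one before.

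The windows with the smallest p in each direction were described although none passed. The Ipo11 window, chr13:106500001-107000000, averaged 0.432% ± 0.0905 of the covered far fragments of the WT libraries and 0.654% ± 0.0632 of those of GRko (SD, n = 2 each). Its log2 ratio was 0.64 (SE 0.379, edgeR adjusted p = 0.993), and both GRko values lay above both WT values. The start window of the flank, up to 103500000, had a log2 ratio of 0.48 (SE 0.397) and chr13:105000001-105500000, over Rnf180 and Htr1a, 0.46 (SE 0.422). Of those below 0, chr13:109500001-110000000, over the distal part of Pde4d, had a log2 ratio of -0.40 (SE 0.50), with 1.46% and 1.39% in WT and 1.33% and 0.822% in GRko replicates 1 and 2. The adjacent windows from 110000001 and from 109000001 had -0.25 (SE 0.385) and -0.24 (SE 0.426). All had an edgeR adjusted p of 0.993. Each of these log2 ratios lay within 2 SE of 0.

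**Figure D3:**
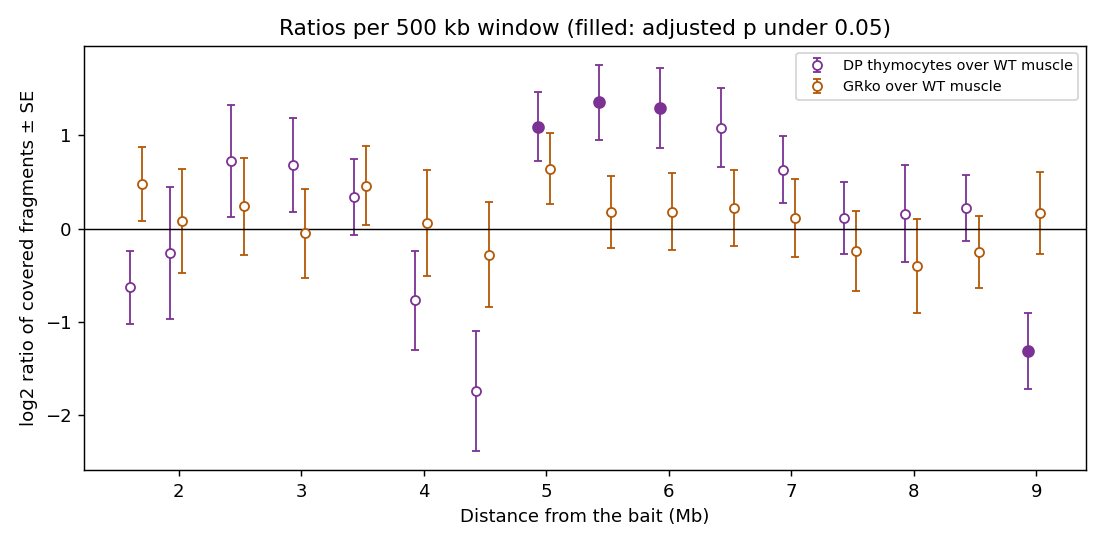
log2 ratio of covered fragments per 500 kb window (vertical axis, bars are SE of the edgeR fit) against the distance from the bait in Mb, for DP thymocytes over WT muscle and GRko over WT muscle, with filled points for an adjusted p under 0.05. The filled points are the 3 windows from Ipo11 to Zswim6, at 1.09, 1.35 and 1.29, and the last window, at -1.31, while the ratios between the genotypes stay between -0.40 and 0.64.

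Genes were ordered by what they encode. The shares of fragments below are levels that move with library depth, for which the far chromosome gives the measure, from 3.29% in DP thymocytes to 0.854% in GRko replicate 2. By mean coverage over the libraries, the densest genes with 20 or more fragments were protein-coding genes from Srek1 to Sgtb. The lncRNA genes between Srek1 and the start of the flank were sparser by this mean, such as Gm30551 at 7.44%. One of them, Gm41047 (mean 10.0%), was above Srek1 in WT replicate 1, at 25.0% of 28 fragments, and in GRko replicate 2, at 10.7%. In DP thymocytes, WT replicate 2 and GRko replicate 1 it was below Srek1. Srek1, which encodes a splicing regulator, was covered at 39.7% of its 68 fragments in DP thymocytes (28.9 to 51.6%), 22.1% and 7.35% in WT, and 10.3% and 8.82% in GRko replicates 1 and 2. Sgtb, a co-chaperone gene, followed with 29.7% of 74 fragments in DP thymocytes, 20.3% and 9.46% in WT, and 10.8% and 4.05% in GRko replicates 1 and 2. Nln was covered at 28.0% of 189 fragments in DP thymocytes, 20.6% and 5.82% in WT, and 10.6% and 4.76% in GRko replicates 1 and 2. Erbin, a scaffold protein that binds the receptor ERBB2, was covered at 25.7% of 210 fragments in DP thymocytes, 17.6% and 7.14% in WT, and 12.4% and 4.76% in GRko replicates 1 and 2. The small gene D130037M23Rik, which overlaps Erbin, had 7, 3, 2, 1 and 3 covered fragments of 22 in DP thymocytes, WT replicates 1 and 2, and GRko replicates 1 and 2. These 5 genes have the highest mean coverage of the protein-coding and other genes with 20 or more fragments, and each was covered most in DP thymocytes.

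Tested over gene spans, no flank gene was called in either comparison. For DP over WT, 17 flank genes had enough covered fragments (10 or more in at least 2 libraries). edgeR's quasi-likelihood test called 0, with 4 at an unadjusted p under 0.05, and DESeq2 called 0. Over the 89 gene spans tested beyond 1.5 Mb, 1.12% were called and 16.9% had an unadjusted p under 0.05. Of the 17, 13 log2 ratios were above and 4 below 0, with a median of 0.29 against 0.08 over all 89. The DP library counted toward the minimum, so a gene high in DP thymocytes could enter with 1 muscle library. Of the 17, only 7 also passed on the muscle libraries alone. Directions among tested genes, here and in the lists below, can therefore lean upward by selection and support no difference. Only 7 flank genes could be tested between the genotypes. edgeR called 0 of them, with 0 at an unadjusted p under 0.05, against 0% of 38 gene spans tested, and DESeq2 called 0.

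Among the genes of enzymes and other functions (Nln, Adamts6, Rnf180, Zswim6, Ndufaf2, Ercc8, Elovl7 and Depdc1b), 6 of 8 were tested for DP over WT. All 6 log2 ratios were above 0, with a median of 0.84, and 3 had an unadjusted p under 0.05. Of the 6, only Nln had enough covered fragments in the muscle libraries alone, so the others entered through DP thymocytes. Adamts6, which encodes a secreted metalloprotease, had 77 covered fragments of 502 in DP thymocytes, 22 and 5 in WT, and 6 and 3 in GRko replicates 1 and 2. Its log2 ratio of 1.54 (SE 0.542) had an edgeR adjusted p of 0.169. It passed with 10 or more reads (edgeR adjusted p = 0.0294) and against all 4 muscle libraries (edgeR adjusted p = 0.0262). It did not pass with no filter (edgeR adjusted p = 0.181), without WT replicate 2 (log2 ratio 1.22, edgeR adjusted p = 0.885) or by DESeq2 (adjusted p = 0.993). Zswim6 had 54 covered fragments of 327 in DP thymocytes, 20 and 5 in WT, and 8 and 3 in GRko replicates 1 and 2, with a log2 ratio of 1.13 (SE 0.530, edgeR adjusted p = 0.276). Elovl7, a fatty acid elongase, had 26 of 180 in DP thymocytes, 10 and 3 in WT, and 4 and 1 in GRko replicates 1 and 2, with a log2 ratio of 0.97 (SE 0.397, edgeR adjusted p = 0.276). Nln had a log2 ratio of 0.13 (SE 0.561, edgeR adjusted p = 0.923), and it fell below 0 in 3 alternatives. Ercc8 was too sparse to test, with 10 covered fragments of 82 in DP thymocytes, 1 and 0 in WT, and 6 and 1 in GRko replicates 1 and 2.

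Of the genes of traffic and cytoskeleton (Kif2a, Ipo11, Trappc13, Rab3c, Trim23, Sgtb and Cenpk), 4 of 7 were tested for DP over WT, 2 above and 2 below 0, with a median of 0.14. Kif2a had 30 covered fragments of 142 in DP thymocytes (21.1%, 15.2 to 28.6%), 4 and 2 in WT, and 5 and 3 in GRko replicates 1 and 2. It was covered at 1.41 to 3.52% in muscle and had too few covered fragments there to be tested. With 10 or more reads Kif2a had 20 in DP thymocytes, 3 and 1 in WT, and 3 and 1 in GRko replicates 1 and 2, and the DP value was again the highest. Ipo11 had 45 of 301 in DP thymocytes, 14 and 6 in WT, and 7 and 5 in GRko replicates 1 and 2, with a log2 ratio of 1.15 (SE 0.499, edgeR adjusted p = 0.271). Sgtb had a log2 ratio of -0.01 (SE 0.456, edgeR adjusted p = 0.988). Rab3c, a small GTPase of vesicle release, lies nearest the far end of the flank among the genes tested. It had 19 of 510 in DP thymocytes, 21 and 2 in WT, and 10 and 4 in GRko replicates 1 and 2, with a log2 ratio of -0.24 (SE 0.523, edgeR adjusted p = 0.816).

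Of the signalling genes (Pde4d, Htr1a, Rgs7bp, Erbin, Plk2 and Gapt), 3 of 6 were tested for DP over WT, all above 0, with a median of 0.18. Pde4d, a cyclic AMP phosphodiesterase gene, spans chr13:108654177-109955969 and holds 3082 fragments, the most of any gene here. It had 247 covered fragments in DP thymocytes (8.01%, 7.11 to 9.03%), 138 and 75 in WT, and 61 and 38 in GRko replicates 1 and 2. Its log2 ratio was 0.18 for DP over WT (SE 0.324, edgeR adjusted p = 0.799; below 0 with 10 or more reads) and -0.31 for GRko over WT (SE 0.294, edgeR adjusted p = 0.992). Along the gene, coverage in DP thymocytes was 3.94% in the window of its start, 6.44% in the next and 12.7% in the last. WT replicate 1 had 1.39%, 3.69% and 7.73% in the same windows, so both rose toward the distal part. Erbin had a log2 ratio of 0.06 for DP over WT (SE 0.560, edgeR adjusted p = 0.957), a direction that flipped with TMM and 6 other settings, and 0.30 for GRko over WT (SE 0.525, edgeR adjusted p = 0.992). Rgs7bp, which binds regulators of G-protein signalling, had 0.75 for GRko over WT (SE 0.902, edgeR adjusted p = 0.992). Htr1a, a serotonin receptor gene of 18 fragments, had 1 covered fragment in WT replicate 2 and 0 in the other libraries. A count of 0 of 18 allows a share of up to 16.7%.

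The genes of RNA processing and ribosome assembly (Srek1, Srek1ip1, Ppwd1, Cwc27 and Dimt1) gave 2 tested members for DP over WT, both above 0, with a median of 0.46. For GRko over WT, the 4 groups had 1, 1, 3 and 1 tested members among RNA processing, traffic, signalling, and enzymes, with medians of 0.06, 0.20, 0.30 and 0.09, against 0.00 over all 38 gene spans. Among genes outside these lists, the lncRNA Gm30551 at chr13:103591395-103707633 had 30 covered fragments of 317 in DP thymocytes and 39 and 17 in WT. Its log2 ratio was -0.90 (SE 0.590, edgeR adjusted p = 0.425), and it was called lower with 10 or more reads (edgeR adjusted p = 0.0248). The lncRNA Gm52064 had a log2 ratio of -0.39 (SE 0.438, edgeR adjusted p = 0.799).

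**Figure D4:**
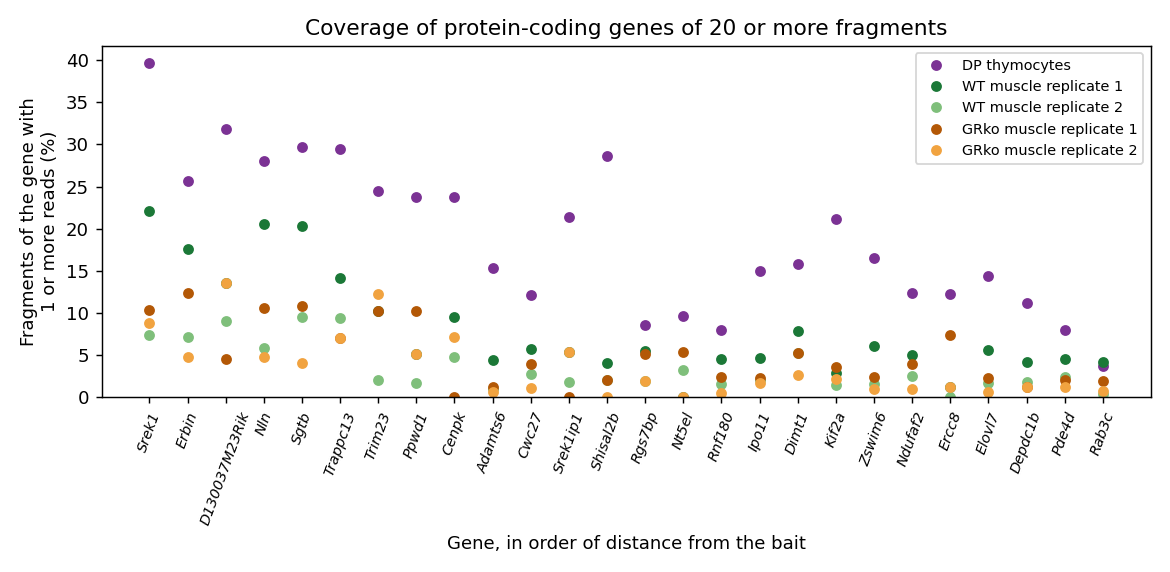
Percent of each gene's fragments with 1 or more reads (vertical axis) for the 26 protein-coding genes of the flank with 20 or more fragments, in order of distance from the bait, with a point for each library. DP thymocytes are highest in nearly every gene, from 39.7% in Srek1 to 3.73% in Rab3c, where WT replicate 1 lies above them at 4.12%. The percents are not scaled for depth, and the DP library is the deepest.

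Single fragments seldom recurred between libraries. Of the 18594 fragments, 15614 (84.0%) had no read in any library and 2536 were covered in 1 library only. In 2, 3 and 4 libraries 392, 42 and 8 fragments were covered, and 2 in all 5. With 10 or more reads the counts were 1869, 201, 14, 1 and 0 for 1 to 5 libraries. Both fragments covered in all libraries lay near the start of the flank. The fragment with its midpoint at 103822150, in Erbin, had 1136 reads in DP thymocytes, 2864 and 10100 in WT, and 2 and 1 in GRko replicates 1 and 2. The fragment at 103940606, between genes, had 10, 20, 88, 5 and 81 reads in the same order. Read numbers of the same fragment thus spanned orders of magnitude between libraries. A fragment with 1 or 2 reads in a library and many more in another counts as covered in both, and whether such reads came from that library was not tested.

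In every pair of libraries, the share of the covered fragments of either that the other also covered was above the other's coverage of the flank. WT replicates 1 and 2 shared 33 fragments, 3.93% and 8.97% of their covered fragments. GRko replicates 1 and 2 shared 37, 8.37% and 13.3%. WT and GRko replicates 1, both of 29 nt, shared 60, 7.14% and 13.6%. DP thymocytes and WT replicate 1 shared 161, 10.3% and 19.2%, where 8.39% of all flank fragments were covered in DP thymocytes and 4.52% in WT replicate 1. The most-read fragment of the flank took 0.853% of its reads in DP thymocytes, 2.54% and 9.65% in WT, and 6.29% and 18.6% in GRko replicates 1 and 2. Read totals of the flank in the shallower libraries therefore rest on few fragments, and fragment counts were used throughout.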

How the data were processed

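4C-seq libraries from 5 samples were used. The deposited values are whole-number read counts for each DpnII fragment of chromosome 13, and each table opens with the bait position, per the file headers. The submitters' processing notes name bcl2fastq, Bowtie 1.0.0 and mm10. How alignments became fragment counts is not stated there, in the labels or in the headers. The position in each row was checked to be the fragment's midpoint, within 0.5 bp for all 311 fragments that lie whole in a promoter sequence. PCR copies were not marked, which makes intervals on fragment counts the closer measure of ligation events.

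Fragments were assigned by midpoint to the flank, to 500 kb windows and to gene spans of GRCm38.p6, which shares its coordinates with mm10. All 26 genes of the 4 lists were matched. Covered far fragments served as library size in edgeR 4.0.16 (quasi-likelihood, R 4.3.3) with Benjamini-Hochberg adjustment at 0.05, for windows or genes with 10 or more covered fragments in at least 2 libraries. An exact permutation test over libraries, two-sided, was used for shares. The fits were also run on counts simulated with the dispersion estimated from these libraries. That run cannot check the dispersion itself, and no result here rests on it. Named windows and genes were those called or, where none was, the 3 of smallest p on either side of 0, with Kif2a, Zswim6 and Pde4d, the 5 genes and 2 windows of highest coverage and the 2 windows of lowest. The interval, lists and rules were chosen with earlier results of these data known. Alternatives were TMM, DESeq2 1.42.0, no filter, read minimums of 3 and 10, reads in place of fragments, equal numbers of fragments, other windows, a moved start, a denominator within 10 Mb, the replicate number as a block, each replicate left out, other sets of muscle libraries and, added after seeing the data, only the 29 nt muscle libraries.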

Additional observations from a re-analysis of the deposited data

How the results depend on the processing

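Depth limited these results, since the flank had 278 to 1560 covered fragments per library, and each comparison rests on 1 or 2 libraries a side. The cause of the changes below was not tested. For DP over WT, 4 of 16 flank windows were called, beside 22 of 186 over all windows. DESeq2 called 0 of 16 in the flank and 0 of 186 over all windows. With no filter 2 of 16 were called (12 of 231 over all windows). With 250 kb windows it was 2 of 25 (13 of 213), and with 1 Mb windows 2 of 8 (14 of 114). The 29 nt muscle libraries alone, chosen after seeing the data, gave 7 of 15 (42 of 166). Leaving out a replicate gave 0 (either WT library) to 6 (either GRko library). For genes, where 0 of 17 were called, no filter called 1 of 78 in the flank, beside 3 of 1168 gene spans. With 10 or more reads 2 of 10 were called, beside 7 of 47, and against all 4 muscle libraries 1 of 17, beside 4 of 89. No setting called a window or gene between the genotypes. The labels give same-numbered muscle libraries the same read length but no shared animal or day, and their deviations from the group means had r = 0.34 over 166 windows. With the replicate number as a block the same 4 of 16 flank windows were called for DP over WT. Over all windows 23 of 186 were then called. Of 17 flank genes the block called 1, Adamts6 (log2 ratio 1.23, edgeR adjusted p = 0.0480), beside 8 of 89 gene spans. Between the genotypes 0 windows were called. A block cannot move the difference in mean shares between GRko and WT, since each replicate number occurs once in each. The DP library has replicate number 1 only. Its log2 ratio over WT moved with the block, from 1.35 to 1.51 in the Kif2a window and from 1.54 to 1.23 for Adamts6.

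GRko minus WT turned in sign for the share with 10 or more reads at equal numbers of fragments (-0.943), the side share by reads (-1.81) and the median distance at equal numbers (0.0988 Mb). DP minus WT turned for the median distance with the start moved by 500 kb (-0.137 Mb). Leaving out a replicate moved GRko minus WT from -1.39 to 3.02 points in the share, from -0.439 to 1.92 with 10 or more reads, from -6.53 to 0.756 in the gene span share and from -0.744 to 0.322 Mb in distance. The log2 ratio of GRko over WT then ranged from -0.17 to 0.87 in window 105000001, -0.49 to 0.27 in 110000001, -0.59 to 0.02 in 109000001, -0.85 to 0.18 in 106000001, -0.22 to 0.33 in 105500001 and -0.33 to 0.39 in 103500001 (which was -0.10 with 10 or more reads). It ranged from -0.44 to 0.73 for Erbin, -0.34 to 0.57 for Rab3c and -0.53 to 0.58 for Nln. That of DP over WT ranged from -0.49 to 0.05 in window 103500001, -0.72 to 1.58 for Rab3c, -0.14 to 0.63 for Nln and -0.04 to 0.22 for Erbin. Other ratios of DP over WT that turned were Erbin (TMM -0.03, DESeq2 -0.01, 10 or more reads -0.31, block -0.14, all muscle -0.09, 29 nt muscle -0.27), Nln (block -0.16, 29 nt muscle -0.21), Sgtb (all muscle 0.07) and Pde4d (10 or more reads -0.18). None of these ratios had passed the test.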

Other observations

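In the 3 shallower libraries, fragments of the flank with a single read had many reads in another library more often than those with no read. Of the 55 such fragments of GRko replicate 1, 27.3% had 100 or more reads in another library, against 5.78% of the fragments with no read in it. In WT replicate 2 these shares were 20% of 115 against 6.10%, and in GRko replicate 2 21.5% of 93 against 6.21%. In DP thymocytes they were 3.70% of 135 against 3.05%, and in WT replicate 1 4.05% of 74 against 4.80%. Among fragments with 10 or more reads in the library the shares were 16.3% in GRko replicate 1, 13.6% in WT replicate 2, 14.7% in GRko replicate 2, 8.64% in DP thymocytes and 13% in WT replicate 1. In the 3 shallower libraries the share was thus higher for fragments with a single read than for either other class. Over all far fragments this was not so in GRko replicate 2, with 9.24% for a single read and 10.6% for 10 or more. The difference, and its part in the fragments shared between libraries, was not tested.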
